A study of Homo sapiens with 9 samples.

Results

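The genes of 9 enzymes and enzyme subunits that remove R-loops, or that keep R-loops from forming, were examined for RNA polymerase II at their starts and in their bodies. They were RNASEH1, RNASEH2A, RNASEH2B, RNASEH2C, AQR, TOP1, TOP3B, XRN2 and BRCA1, chosen by name among 20046 protein-coding genes of GENCODE version 44, with the DHX and DDX helicases left out. A peak belonged to a gene when its summit, the position of its highest signal, lay inside the gene or at most 1000 bp from the start of any of its transcripts. Polymerase was mapped by chromatin immunoprecipitation and sequencing (ChIP-seq) of POLR2A, its largest subunit, in HEK293T, a cell line derived from human embryonic kidney. There were 9 samples of 3 conditions: cells with a control shRNA (shCtrl, genotype given as wildtype), cells with U2AF1 knockdown and cells with DHX9 knockdown. U2AF1 is the small subunit of the factor that recognises the 3′ splice site, and DHX9 is a helicase that unwinds RNA and RNA:DNA hybrids. Each condition had 2 ChIP samples and 1 input sample. The labels name neither the shRNA sequences nor a clone, and nothing in them says that the replicates came from separate cultures.

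An R-loop forms when a nascent RNA pairs with the DNA strand it was copied from and leaves the opposite strand unpaired. RNase H1 and the RNase H2 complex cut the RNA within such hybrids, and RNase H2 also removes single ribonucleotides from DNA. Topoisomerase 1 relaxes the underwound DNA behind a polymerase, in which hybrids form easily. XRN2 degrades the RNA left on the template after cleavage at the end of a gene, and AQR is an RNA helicase of the spliceosome.

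Of these 9 genes, 4 had a POLR2A peak in at least 1 list and 5 had none in any list. Peaks were at RNASEH2C and XRN2 under the control shRNA, at TOP1 and XRN2 under U2AF1 knockdown, and at RNASEH1 and RNASEH2C under DHX9 knockdown. No gene of the set had a peak in all 3 lists. Each list thus held 2 of the 9 genes, or 22.2%. By the same rule 13.2% of all protein-coding genes had a peak under the control shRNA, 7.34% under U2AF1 knockdown and 22.2% under DHX9 knockdown. A peak in at least 1 list was present at 26.4% of protein-coding genes and a peak in all 3 lists at 4.34%. All 6 peaks of the set lay at gene starts and 0 in gene bodies. Start peaks were also the common case among all protein-coding genes. With start windows alone, 12.6% had a peak under the control shRNA, 6.64% under U2AF1 knockdown and 21.0% under DHX9 knockdown.

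Each condition has 1 deposited list, so none of these values has a replicate error and no difference between lists was tested. The lists held 2757 peaks under the control shRNA, 1730 under U2AF1 knockdown and 4443 under DHX9 knockdown, and the number of reads behind them is unknown. Peak names in the control list carry a mark that reads as replicate 1, so that list may rest on a single library. Most protein-coding genes, 73.6%, had no peak in any list, and a gene without a peak is one whose signal did not reach the peak caller's threshold. It cannot be told from the lists how much polymerase such a gene carried. Peak lists hold no RNA levels, and neither the knockdowns nor the identity of the cells was checked here.

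**Figure D1:**
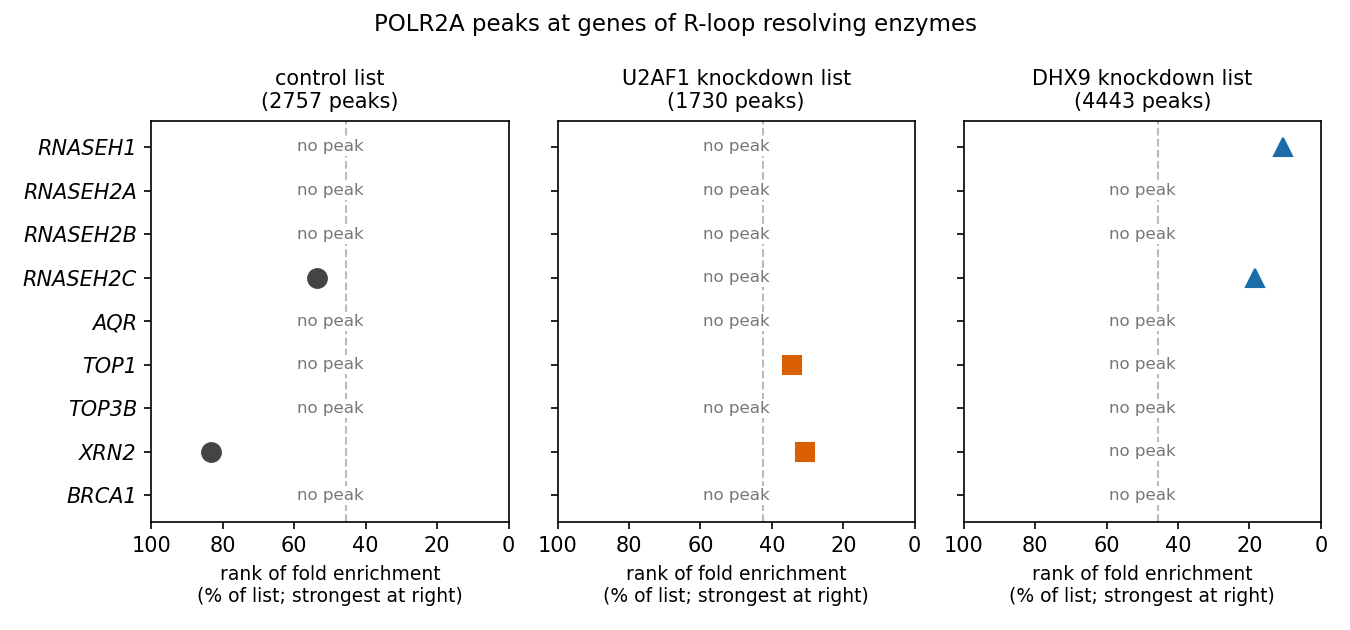
Rank of fold enrichment of the peak at each of the 9 genes, as a percentage of the list with the strongest peaks at the right, in each of the 3 lists; dashed lines mark the median over all protein-coding genes with a peak in that list. Each list has 2 symbols. Both lie on the strong side of the dashed line in each knockdown list and on its weak side in the control list.

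The sequences just upstream of the 4 genes with a peak are shown, since the peaks lie on or beside them, together with those of AQR and TOP3B, which had no peak. They are stretches of RefSeq promoters (GRCh38.p14), read 5′ to 3′ in the direction of the gene, and stop before any annotated untranslated region. Capitals mark matches, on either strand, to 8 motifs: the CCAAT box (CCAAT), the TATA box (TATAAA), the GC box (GGGCGG), and the cores of ETS sites (CCGGAA), NRF1 sites (CGCATGCG), YY1 sites (AAGATGGC), E-boxes (CACGTG) and cyclic AMP response elements (TGACGTCA). Positions count from the start of the gene, with negative values upstream.
RNASEH1, chr2:3558334-3558453, minus strand, -120 to -1: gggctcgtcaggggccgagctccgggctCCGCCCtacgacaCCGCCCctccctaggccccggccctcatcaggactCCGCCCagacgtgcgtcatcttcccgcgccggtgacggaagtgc
RNASEH2C, chr11:65720804-65720923, minus strand, -125 to -6: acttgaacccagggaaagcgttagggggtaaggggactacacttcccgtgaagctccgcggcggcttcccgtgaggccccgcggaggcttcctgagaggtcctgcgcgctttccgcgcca
TOP1, chr20:41028702-41028821, plus strand, -120 to -1: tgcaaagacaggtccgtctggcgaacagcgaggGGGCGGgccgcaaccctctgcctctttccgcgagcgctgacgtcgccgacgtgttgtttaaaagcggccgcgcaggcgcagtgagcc
XRN2, chr20:21303081-21303330, plus strand, -250 to -1: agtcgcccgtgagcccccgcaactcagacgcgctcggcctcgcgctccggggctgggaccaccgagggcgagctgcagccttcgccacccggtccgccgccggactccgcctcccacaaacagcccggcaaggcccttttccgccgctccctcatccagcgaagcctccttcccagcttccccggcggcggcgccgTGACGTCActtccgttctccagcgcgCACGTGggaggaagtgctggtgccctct
AQR, chr15:34969743-34969862, minus strand, -120 to -1: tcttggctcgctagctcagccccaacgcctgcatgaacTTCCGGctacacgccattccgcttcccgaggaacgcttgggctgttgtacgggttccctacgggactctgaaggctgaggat
TOP3B, chr22:21982814-21982933, minus strand, -146 to -27: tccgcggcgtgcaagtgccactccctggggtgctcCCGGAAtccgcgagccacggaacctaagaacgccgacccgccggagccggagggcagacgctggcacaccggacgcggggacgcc

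No motif was common to the 4 genes with a peak. The promoter window searched ran from 250 bases before to 50 bases after the start and was found for all 9 genes. RNASEH1 held 4 GC boxes, at -204, -92, -79 and -44, and TOP1 held 1 at -87. RNASEH2C held a match to none of the 8 motifs. XRN2 held a cyclic AMP response element at -54 and an E-box at -28, which are present in 2.76% and 8.86% of 15345 promoters of protein-coding genes. Among the genes without a peak, ETS cores stood in the windows of RNASEH2A, AQR and TOP3B, CCAAT boxes in RNASEH2A, RNASEH2B and BRCA1, and GC boxes in RNASEH2B, AQR and TOP3B. Over all promoters these shares were 23.8% for the ETS core, 36.6% for the CCAAT box and 61.8% for the GC box. TATA boxes (9.42% of promoters), NRF1 cores (2.94%) and YY1 cores (4.15%) were found in 0 of the 9 windows. Matches to different motifs did not overlap in these windows, and a match is a string of letters that need not be a bound site.

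RNASEH1, the gene of the monomeric RNase H that acts on hybrids in the nucleus and in mitochondria (ENSG00000171865.10, chromosome 2, 3541430 to 3558333, minus strand), had a peak under DHX9 knockdown and in neither other list. The peak ran from 3558048 to 3558470, with a fold enrichment over background, as the authors' files give it, of 7.94 and a −log10 q of 12.5. It ranked 469 of 4443 peaks by fold enrichment, which places it at 10.6% of the list, counted from the strongest peak, and makes it the strongest of the 6 peaks by rank. Its summit lay in the 5′ untranslated region of exon 1, 45 bp downstream of the canonical start and 1 bp from the start of another transcript. The peak covered the whole upstream stretch printed for RNASEH1, including its 3 GC boxes. A second protein-coding annotation on the same strand, ENSG00000286905, starts 16 bp from the summit, and the lncRNA RNASEH1-DT starts on the opposite strand 86 bp upstream of the RNASEH1 start. The polymerase of these 3 transcription units cannot be told apart in the peak.

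The control list held no peak nearer to a RNASEH1 start than -17.0 kb, where its peak lay at the start of the ribosomal protein gene RPS7. Of 501 protein-coding genes whose DHX9 knockdown peak fell in the same decile of the list by rank, 63.9% also had a control peak and 37.7% a U2AF1 knockdown peak. Among all protein-coding genes, 12.1% had a peak under DHX9 knockdown and none under the control shRNA, and 3.16% the reverse. The pattern of RNASEH1, a peak under DHX9 knockdown alone, was shared by 10.6% of protein-coding genes.

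RNase H2 is built from a catalytic subunit, encoded by RNASEH2A, and accessory subunits encoded by RNASEH2B and RNASEH2C. RNASEH2C (ENSG00000172922.11, chromosome 11, 65714005 to 65720818, minus strand) was the only gene of the 3 with a peak. In the control list the peak ran from 65720587 to 65720829, with a fold enrichment of 4.02, a −log10 q of 7.29 and rank 1475 of 2757, at 53.5% of the list. Under DHX9 knockdown it ran from 65720523 to 65720843, with a fold enrichment of 6.98, a −log10 q of 9.58 and rank 818 of 4443, at 18.4%. The U2AF1 knockdown list had no peak there. Both summits lay in the coding sequence of exon 1, 84 bp downstream of the canonical start in the control list and 90 bp under DHX9 knockdown, and the DHX9 knockdown peak covered all 243 bp of the control peak.

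The RNASEH2C summits differed by 6 bp, less than those of 88.0% of the 1907 protein-coding genes that had a start site peak in both lists. The median difference over those genes was 43 bp. The peak stood 35.1 percentage points nearer the top of the DHX9 knockdown list than of the control list. Of the 1907 genes, 18.6% moved at least as far in that direction, and 61.5% moved in that direction by any amount. Only genes ranked beyond 35.1% of the control list could move up by 35.1 points. The DHX9 knockdown list is the longer, so a given rank is a smaller percentage of it. Ranked by −log10 p, the RNASEH2C peaks stood at 52.3% in the control list and 24.8% under DHX9 knockdown. Absence from the U2AF1 knockdown list was common at that strength, since 24.2% of 285 genes in the same decile of the control list had a U2AF1 knockdown peak. Peaks in the control and DHX9 knockdown lists without a U2AF1 knockdown peak were found at 5.7% of protein-coding genes. The nearest opposite start to RNASEH2C, that of the acetyltransferase gene KAT5, lay 2092 bp downstream of its canonical start and inside neither peak.

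RNASEH2A (ENSG00000104889.7, chromosome 19, 12806584 to 12813640, plus strand) and RNASEH2B (ENSG00000136104.21, chromosome 13, 50909747 to 51024120, plus strand) had no peak in any list. The nearest summit to a RNASEH2A start lay 4809 bp upstream under DHX9 knockdown, 12 bp from the start of the peroxiredoxin gene PRDX2, with rank 699. Where a gene of the 9 had no peak in a list, that was the closest summit. Among the 6 peaks, the summit farthest from a start was that of XRN2 at -194 bp. In the control and U2AF1 knockdown lists the nearest summits to RNASEH2A lay about -15.1 and -15.0 kb away, at the transcription factor gene JUNB. Around RNASEH2B the nearest summit lay 505.0 kb away in every list, at the Integrator subunit gene INTS6. Thus 1 of the 3 genes of the complex had a peak in any list, beside 26.4% of all protein-coding genes.

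**Figure D2:**
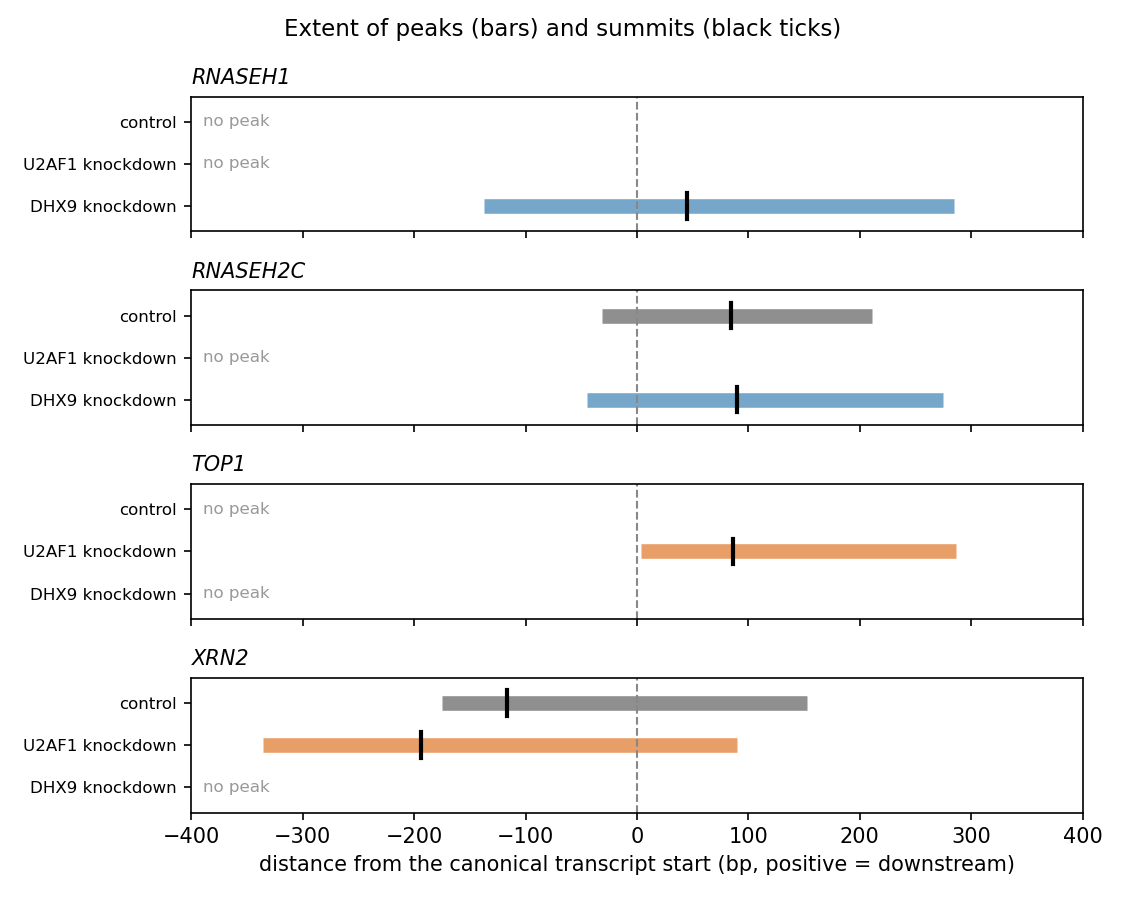
Extent of the 6 peaks (bars) and their summits (black ticks) at RNASEH1, RNASEH2C, TOP1 and XRN2, in bp from the canonical transcript start (dashed line, positive downstream), by list. The RNASEH2C summits lie at 84 and 90 bp, and both XRN2 summits lie upstream of the start, at -117 and -194 bp.

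TOP1 (ENSG00000198900.7, chromosome 20, 41028822 to 41124487, plus strand), the gene of the main nuclear topoisomerase of type I, had a peak under U2AF1 knockdown and in neither other list. It ran from 41028826 to 41029108, with a fold enrichment of 5.32, a −log10 q of 5.79 and rank 595 of 1730, at 34.4% of the list. Ranked by −log10 p, the same peak stood at 51.4%. The peak began 4 bp downstream of the canonical start, so the printed TOP1 promoter lay just outside it. The summit was in the 5′ untranslated region of exon 1, 86 bp downstream of the canonical start and 6 bp upstream of the start of another transcript. No other gene had a start within 1000 bp of it. The nearest summits of the control and DHX9 knockdown lists lay 32.9 kb downstream of the nearest TOP1 start, at the phospholipase gene PLCG1.

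Absence of TOP1 from the longer lists was the less common case at its rank by fold enrichment. Such shares were not computed for ranks by −log10 p, by which the peak stood at 51.4%. Of 178 protein-coding genes in the same decile of the U2AF1 knockdown list, 71.3% had a control peak and 82.0% a DHX9 knockdown peak. A peak under U2AF1 knockdown alone was found at 1.04% of all protein-coding genes, and a U2AF1 knockdown peak without a control peak at 2.53%, against 8.39% for the reverse.

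TOP3B (ENSG00000100038.20, chromosome 22, 21957025 to 21982813, minus strand), which encodes a topoisomerase that can act on RNA as well as on DNA, had no peak in any list.

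XRN2 (ENSG00000088930.8, chromosome 20, 21303331 to 21389825, plus strand), the nuclear exonuclease that digests RNA from its 5′ end, had a peak in the control and U2AF1 knockdown lists and none under DHX9 knockdown. The control peak ran from 21303156 to 21303484, with a fold enrichment of 3.05, a −log10 q of 3.33 and rank 2301 of 2757, at 83.5% of the list. The U2AF1 knockdown peak ran from 21302995 to 21303421, with a fold enrichment of 5.56, a −log10 q of 6.18 and rank 529 of 1730, at 30.6%. The XRN2 peak was thus among the weaker control peaks and in the upper part of the U2AF1 knockdown list. Of 894 protein-coding genes with a start site peak in both lists, 2.8% moved at least as far toward the top, by 52.9 points or more. Only genes ranked beyond 52.9% of the control list could move that far. The median rank of all protein-coding genes with a control peak was 45.4%, so most of them could not. Ranked by −log10 p, the XRN2 peaks stood at 88.7% and 47.5%.

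Both XRN2 summits were upstream of the single start in GENCODE, at -117 bp in the control list and -194 bp under U2AF1 knockdown. The 2 peaks shared 266 bp. Their summits differed by 77 bp, and 30.9% of the 894 genes differed by more, with a median of 38 bp. Over all protein-coding genes with a start site peak, 36.7% of control summits and 32.4% of U2AF1 knockdown summits lay upstream of the canonical start. Both peaks covered the response element and the E-box printed above, and both summits lay farther from the start than these matches. The lncRNA ENSG00000275457 starts on the opposite strand 373 bp inside XRN2, 490 bp from the control summit.

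A control peak at the level of XRN2 was usually found under DHX9 knockdown, in 70.6% of 231 genes in the same decile of the control list, whereas XRN2 was not. Genes with peaks in the control and U2AF1 knockdown lists and none in the DHX9 knockdown list made up 0.474% of protein-coding genes, the rarest of the patterns seen in these 9 genes. When peaks needed a −log10 q of at least 5, or when each list was reduced to its top 1730 peaks by −log10 p, the control list lost the XRN2 peak and held 1 of the 9 genes.

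AQR (ENSG00000021776.11, chromosome 15, 34851782 to 34969742, minus strand) and BRCA1 (ENSG00000012048.25, chromosome 17, 43044295 to 43170245, minus strand) had no peak in any list. AQR encodes the helicase that binds introns in the spliceosome, and BRCA1 a DNA repair protein that acts with the helicase senataxin at sites of R-loops. BRCA1 shares its promoter with the lncRNA NBR2, whose start lay on the opposite strand 187 bp upstream of the canonical BRCA1 start. The nearest summit to an AQR start was 18.4 kb upstream in the control list, at the start of ZNF770. Around BRCA1 the nearest summits lay from 61.9 to 63.2 kb upstream of its starts.

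Genes of the set with another gene's start on the opposite strand within 1000 bp were RNASEH1, RNASEH2B, XRN2 and BRCA1, of which RNASEH1 and XRN2 had a peak. Such a start was present at 29.1% of all protein-coding genes and at 44.2% of the 5283 with a peak in at least 1 list.

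The median rank of the 2 peaks in each list was 68.5% in the control list, 32.5% under U2AF1 knockdown and 14.5% under DHX9 knockdown. The medians over all protein-coding genes with a peak were 45.4%, 42.4% and 45.7% in the same order. Each median here rests on 2 peaks that passed the caller's threshold in that list, and different genes make up each. With lists of equal length, the DHX9 knockdown median was 37.2%, behind U2AF1 knockdown at 32.5%. The U2AF1 knockdown median was 54.5% with a −log10 q of at least 5 and 49.5% when ranked by −log10 p.

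The composition of the DNA around the starts was then compared, a feature that the choice of genes did not use. GC content within 500 bp of the canonical start was 70.6% at TOP1, 66.3% at XRN2, 65.6% at RNASEH1 and 64.4% at RNASEH2C, the genes with a peak. It was 62.8% at RNASEH2A, 62.4% at RNASEH2B, 56.3% at TOP3B, 54.7% at AQR and 54.2% at BRCA1, the genes without. The ranges of the groups did not overlap among these 9 genes. Over all protein-coding genes the groups overlapped widely. The median was 65.6% (quartiles 60.3 and 70.4) for the 5283 genes with a peak in at least 1 list and 59.4% (51.5 and 66.0) for the 14758 others with sequence. The part of GC content in peak detection was not tested.

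GC skew, the excess of G over C on the coding strand divided by their sum, was computed over the first 1000 bases of each gene, because transcripts rich in G form more stable R-loops. It was 0.28 at BRCA1, above 97.9% of protein-coding genes, 0.14 at RNASEH2A, 0.12 at AQR, 0.09 at RNASEH1 and TOP3B, 0.08 at RNASEH2C, 0.06 at RNASEH2B and 0.03 at XRN2. TOP1 alone was negative, at -0.14, below which 4.79% of genes lay. The median over all protein-coding genes was 0.05, with 0.06 for those with a peak in at least 1 list and 0.04 for those without. BRCA1 and TOP1 stood at opposite ends of the range of the 9 genes. The contrast is visible in the 60 intronic bases of each with the largest excess, in which capitals mark runs of at least 3 C in TOP1 and of at least 3 G in BRCA1 (GRCh38).
TOP1, chr20:41029564-41029623, plus strand, 743 to 802 bases from the start, 31 C and 11 G: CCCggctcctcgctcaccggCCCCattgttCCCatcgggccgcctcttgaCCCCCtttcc
BRCA1, chr17:43124651-43124710, minus strand, 655 to 714 bases from the start, 29 G and 4 C: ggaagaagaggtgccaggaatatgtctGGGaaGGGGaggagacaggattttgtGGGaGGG

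Runs of at least 4 C, which are G runs on the template strand, numbered 20 in the first 1000 bases of TOP1, more than in 97.3% of protein-coding genes, and 1 in BRCA1. Runs of at least 4 G on the coding strand numbered 8 in TOP1 and 14 in BRCA1. The ratio of observed to expected CpG dinucleotides ran from 0.64 at BRCA1 to 0.95 at RNASEH2B, with a median of 0.72 over protein-coding genes. BRCA1, AQR and RNASEH2A lay below that median. In this ratio and in GC skew, unlike GC content, the ranges of the genes with and without a peak overlapped.

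**Figure D3:**
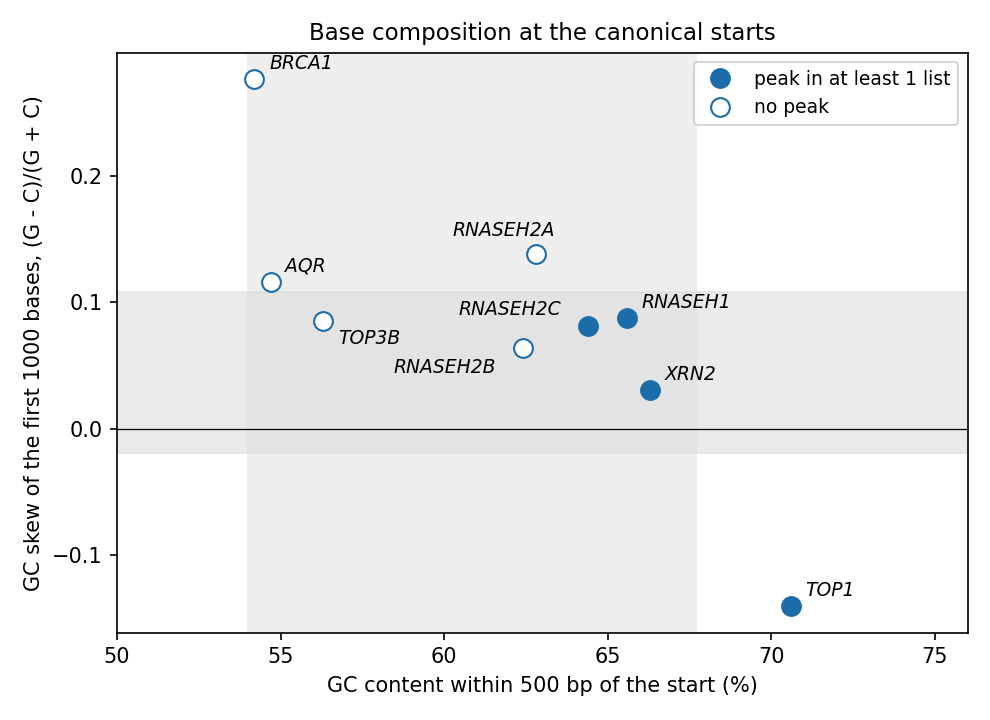
GC content within 500 bp of the canonical start (horizontal, %) and GC skew of the first 1000 bases (vertical) of the 9 genes, filled where a peak was present in at least 1 list; grey bands span the middle quartiles of all protein-coding genes. The filled symbols lie at 64.4% GC and above, the open ones at 62.8% and below, and TOP1 is the only gene below 0 in skew.

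Other genes that handle R-loops or the RNA ends near them were taken from 6 lists of 38 genes. In the control list 5 of the 38 had a peak (13.2%), under U2AF1 knockdown 4 (10.5%) and under DHX9 knockdown 16 (42.1%), beside 13.2%, 7.34% and 22.2% of all protein-coding genes. A peak in at least 1 list was present at 20 of the 38, beside 26.4% of all protein-coding genes. The other 18 had none in any list, as did 73.6% of all protein-coding genes. Among 7 further helicases of R-loops, 0 had a peak in the control and U2AF1 knockdown lists and 2 under DHX9 knockdown, and BLM, WRN, PIF1, RTEL1 and FANCM had none in any list. Of 6 BRCA and Fanconi anaemia genes, 2 had a peak under DHX9 knockdown and 1 in each of the other lists, and BARD1, PALB2, FANCD2 and FANCI had none. Among 7 genes of the THO complex and mRNA export, the counts were 2 with the control shRNA, 0 with U2AF1 knockdown and 4 with DHX9 knockdown, and only THOC2 was without a peak in any of them.

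Of the 4 partners of AQR in the intron-binding complex, 3 had a peak under DHX9 knockdown and 0 in the other lists, with XAB2 in none. Those peaks ranked from 2444 to 2925 of 4443. Cleavage and termination genes, which act with XRN2, had a peak in 1, 2 and 4 of 8 cases in the same order of lists, and CSTF2, CLP1 and PCF11 had none. Of 6 topoisomerase genes and partners, each list held a peak at 1, and TOP2A, TOP2B, TOP3A and RMI1 had none. The only gene of the 6 lists in the strongest 10% of a list was RMI2, with rank 115 in the control list and 164 in the U2AF1 knockdown list. Its summits lay 6495 and 6492 bp from the nearest RMI2 start and within 1000 bp of the start of SOCS1, so they may not belong to RMI2. The RMI2 peaks are counted in the shares above. All peaks of the 38 genes other than those of RMI2 lay at starts, and starts of neighbouring genes were not looked up for them. With start windows alone, 12.6%, 6.64% and 21.0% of all protein-coding genes had a peak, in the same order of lists.

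**Figure D4:**
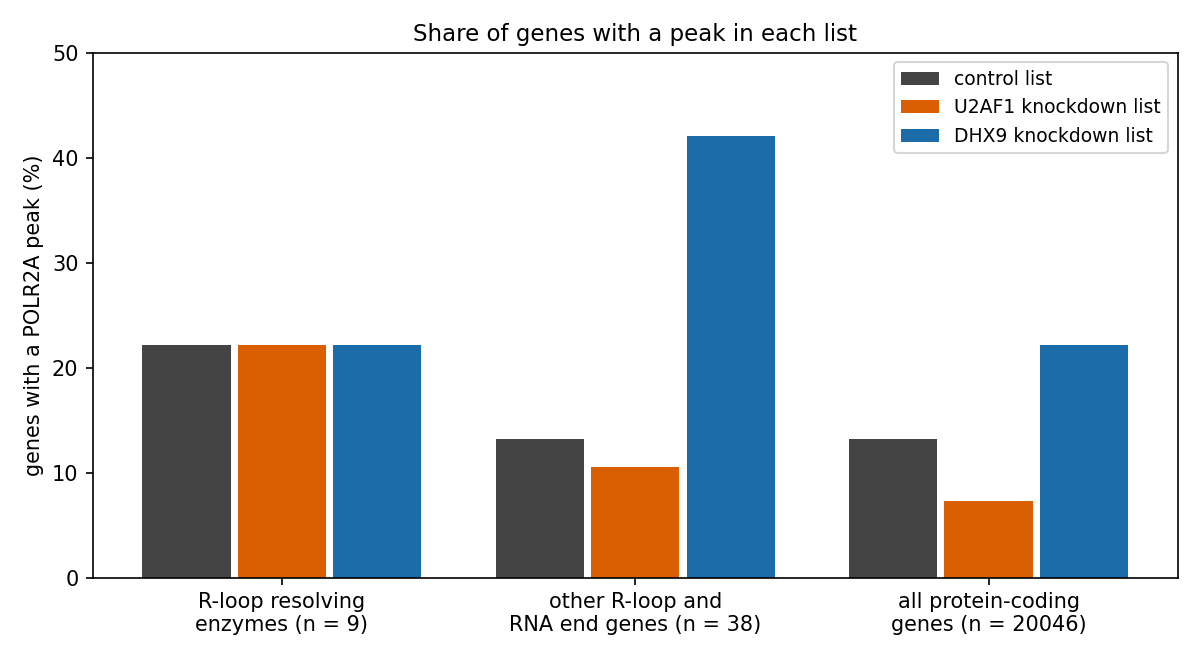
Share of genes with a POLR2A peak (%) among the 9 R-loop resolving enzymes, the 38 genes of the 6 other lists and all 20046 protein-coding genes, in each of the 3 peak lists; each bar is 1 list without replicates. The first set stands at 22.2% in every list, and the second at 13.2%, 10.5% and 42.1%. The lists differ in length, and the second set was not recomputed with lists of equal length.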

How the data were processed

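The data were the authors' deposited peak lists, 1 for each condition and named in the labels of both of its ChIP samples. Per the submitters' processing notes, Bowtie2 2.4.5, MACS2 2.2.7.1 and deepTools 3.5.1 were used with build hg38; their settings, and whether replicates were pooled, are not given in the sources used here. The deposited columns held peak positions in bp, a fold enrichment, −log10 p and −log10 q, and a score that repeats −log10 q and was not used. The deposited fold enrichment is a ratio to a background that the files do not name, so it was used to describe and to rank peaks within a list only. The lowest deposited −log10 q was 1.31 under the control shRNA, 1.30 under U2AF1 knockdown and 1.31 under DHX9 knockdown. All peaks lay on sequences of GRCh38, and 0 ended beyond them.

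Coordinates count from 1. Peaks were assigned to genes as described in the report, with GENCODE version 44, in Python 3.11.15 with pandas 2.3.3; the assignment was tested on simulated peaks. A gene with several peaks is described by the highest fold enrichment, and a peak that meets the rule for several genes counts for each. Where a nearest start is named, it is that of any transcript of the gene. No test was run, since a condition has 1 list. The 9 genes and the 6 other lists were chosen with earlier results of these data known. All 9 genes were named by rule, and genes of the other lists only where they had no peak in any list or stood in the strongest 10% of a list. No value was taken from the input samples. Alternatives were a −log10 q of at least 5, equal numbers of top peaks, start windows of 500 and 2000 bp, peak overlap of at least 1 bp in place of the summit, start windows alone, canonical starts, ranks by −log10 p and peak midpoints.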

Additional observations from a re-analysis of the deposited data

How the results depend on the processing

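No paired analysis was possible because the replicates of a condition share 1 list, and for the same reason no replicate could be left out. Of 28 values for the number of the 9 genes with a peak, 26 stayed within 1.5 times the reported number; a −log10 q of at least 5 and equal numbers of top peaks each left 1 of the 9 genes, RNASEH2C, in the control list. No gene had a peak in all 3 lists under any of the 7 settings tried. Of these, only the start window of 2000 bp and peak overlap could add a peak to a gene. The other settings only remove peaks or assignments, so they could not have given such a gene, and their values are among the 26. The median rank of the peaks of a list was recomputed under 4 settings, and start windows alone left it as reported. With −log10 q of at least 5 it was 54.5% under U2AF1 knockdown and 22.6% under DHX9 knockdown. With equal numbers of top peaks it was 37.2% under DHX9 knockdown. In the control list these settings left the RNASEH2C peak alone, at 73.5% and 77.5%, which is the rank of a single peak and no median to set beside 68.5%. Ranked by −log10 p it was 70.5% in the control list, 49.5% under U2AF1 knockdown and 19.6% under DHX9 knockdown. With equal numbers U2AF1 knockdown, at 32.5%, stood ahead of DHX9 knockdown, the reverse of the reported order. Equal numbers remove the weak peaks of the longer lists by construction.

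Summit distances depend on the start chosen. From the canonical start they were 45 bp for RNASEH1 and 86 bp for TOP1. Peak midpoints lay 30 bp from the nearest start for RNASEH1, 90 bp for RNASEH2C in the control list, -97 bp under DHX9 knockdown, 53 bp for TOP1, and -11 and -123 bp for XRN2 in the control and U2AF1 knockdown lists. The negative RNASEH2C value counts from another transcript start inside the gene, and that midpoint lay downstream of the canonical start. The XRN2 midpoints stayed upstream of the single start, the control one only just. The lists do not give sequencing depth, which limits how many weak peaks each can hold.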

Other observations

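The share of protein-coding genes with a peak was larger at starts of higher GC content in every list. With genes split into 5 equal groups by GC content within 500 bp of the canonical start, it went, from the lowest group to the highest, from 3.04% to 21.5% in the control list, from 1.47% to 14.1% under U2AF1 knockdown and from 4.81% to 36.8% under DHX9 knockdown. BRCA1, AQR and TOP3B stood in the second of these groups, where 19.4% of genes had a peak in at least 1 list. RNASEH2A and RNASEH2B stood in the third, with 27.8%, XRN2, RNASEH1 and RNASEH2C in the fourth, with 36.7%, and TOP1 in the highest, with 42.0%. The genes of a group are not replicates, and these shares are a description.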
